A study of Mus musculus with 72 samples.

Results

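The circadian clock genes followed here were the activators *Clock* and *Arntl* and the 8 genes of the repressor arm, *Per1*, *Per2*, *Per3*, *Cry1*, *Cry2*, *Nr1d1*, *Nr1d2* and *Bhlhe40*. They were listed by symbol, without use of a measured value, and all 10 were found among 51826 genes with read counts. Mouse embryonic stem cells of the E14TG2a line were given 4-thiouridine (4sU), a uridine analog that is built into newly made RNA and is read as a T-to-C conversion after alkylation. The cells were separated with detergents into cytosol, membrane and nucleus, whole cells were kept alongside, and polyadenylated RNA was sequenced from each of these 4 fractions. Labeling lasted 15, 20 or 30 min in replicates 1 and 2. It lasted 20, 40, 60 or 120 min in replicates 3 and 4. The last pair, replicates 5 and 6, covered the 60 and 120 min labelings. All groups were the same unmodified line and received 4sU. The labels name no treatment that would synchronize the clock and no time of day. The labels give 500 µM 4sU up to 40 min and 100 µM at 60 and 120 min. The study's methods also name the higher dose at 60 min and longer, so doses were not compared. They state that samples given 500 µM for more than 60 min were left out, because genes changed in level from 120 min on. Of 72 libraries, 64 entered the measurements of new RNA. The 8 libraries of replicates 3 and 4 at 120 min, absent from the study's main analysis, were used for read counts over time only. Per the study's methods, the replicates were passaged independently and labeled separately.

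The mammalian clock is a feedback loop in which CLOCK and BMAL1, the product of *Arntl*, bind E-box sequences as a pair and activate the *Per* and *Cry* genes, whose proteins then inhibit that pair. A second loop joins the first, because the REV-ERB receptors encoded by *Nr1d1* and *Nr1d2* repress *Arntl*, and BHLHE40 competes for E-boxes. Short-lived mRNAs and proteins are part of how the loop turns, and undifferentiated embryonic stem cells are known to express clock genes without a running rhythm.

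To show the sequences through which the loop is wired, windows from 250 bases upstream to 50 bases downstream of the RefSeq start sites were read for the members that matched (8 of 10, with 12 windows; *Per2* and *Bhlhe40* had none). The E-box CACGTG, searched on both strands, was found in 7.15% of 32851 promoter windows of 300 bases, and among the members in *Per1* at position −166 from 1 of its start sites and in *Cry1* at position −60. The D-box TTATGTAA, read by the PAR bZIP factors, was found in 0.938% of windows and occurred at positions −205 and −158 of *Per3*. The receptor motif AGGTCA, which REV-ERB and ROR receptors read, was found in 16.3% of windows, among them those of *Per1* (−137), *Clock* (−119), *Nr1d2* (−77) and *Arntl* (31, downstream of the start), and the cAMP response element TGACGTCA was in 1.79% of windows and in none of the members'. A match is a description of these letters and not a site of binding. The 250 bases upstream of the start are given 5′ to 3′ on the gene's strand for 3 members (GRCm38.p6), with motif matches in capitals: *Per1* (chr11:69098699-69098948, plus strand; an E-box, then a receptor motif read on the other strand), *Cry1* (chr10:85185055-85185304, minus strand; an E-box) and *Per3* (chr4:151044666-151044915, minus strand; a pair of D-boxes).

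Per1: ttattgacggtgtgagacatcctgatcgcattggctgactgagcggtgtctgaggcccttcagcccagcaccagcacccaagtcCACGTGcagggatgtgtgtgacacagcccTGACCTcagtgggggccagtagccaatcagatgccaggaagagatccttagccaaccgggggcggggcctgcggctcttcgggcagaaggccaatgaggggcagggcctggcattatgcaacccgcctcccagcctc

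Cry1: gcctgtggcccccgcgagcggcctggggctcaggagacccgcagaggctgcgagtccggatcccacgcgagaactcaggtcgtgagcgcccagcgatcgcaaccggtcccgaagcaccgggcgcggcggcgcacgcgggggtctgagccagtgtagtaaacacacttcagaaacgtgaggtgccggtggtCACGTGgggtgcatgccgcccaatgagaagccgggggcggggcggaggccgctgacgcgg

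Per3: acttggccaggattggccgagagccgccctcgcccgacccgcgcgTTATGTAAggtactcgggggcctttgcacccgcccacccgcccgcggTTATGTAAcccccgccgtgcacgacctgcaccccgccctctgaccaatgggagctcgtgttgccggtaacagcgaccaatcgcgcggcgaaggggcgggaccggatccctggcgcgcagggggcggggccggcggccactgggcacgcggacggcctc

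The 72 libraries held 13185351 to 52975732 reads assigned to genes (median 21494524.5). Embryonic stem cell markers were above 1 RPKM (reads per kilobase of exon, scaled to library size) in every whole-cell replicate (7 of 7), and of 11 markers of other cell types 1 was, *Krt8*. Mitochondrial genes took 4.39–15.3% of reads in the membrane fraction and 0.0263–0.204% in the cytosol. Of the nuclear RNAs, *Malat1* was higher in the nucleus than in the cytosol by 2.28 on the log2 scale, and in the membrane fraction by 1.45, whereas *Neat1* did not pass in the nucleus (0.96, edgeR adjusted p = 0.0555), although it did under DESeq2 (adjusted p = 0.0132) and with the replicate as a block (adjusted p = 0.000307). Also higher in the nucleus were transcripts of proteins made at the endoplasmic reticulum (*Hspa5* 2.99, *Tfrc* 1.83), which were also higher in the membrane fraction (5.24 and 3.08). The whole-cell libraries labelled replicate 6 went against their times: 95.6% of 14744 genes and 9 of 9 members had a higher share of new RNA in the library labelled 60 min than in the one labelled 120 min, against 5.11–8.73% of genes and 0 of 9 members in the other 7 pairs of a replicate and a fraction. The whole-cell results on new RNA are therefore also given without that replicate. In bulk RNA, fewer cells that express a gene and less RNA per cell cannot be told apart.

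The clock genes were detected at low to moderate levels, and *Per2* was close to absent. Levels in whole cells were compared between genes per exon length (RPKM over 6 replicates). The length was that of all annotated exons of a gene together, 7.52 kb for *Arntl* and 3.34 kb for *Cry1*. Counting only the longest of overlapping exons with T counts, the last and upstream exons were 0.668 and 2.42 kb in *Arntl*. In *Cry1* they were 0.608 and 2.42 kb. The order of genes by level depends on this choice, and other lengths were not tested. *Cry1*, a repressor of the CLOCK–BMAL1 pair, had the highest level, with a lowest value of 7.40, a median of 8.56 and a highest value of 12.7. The other cryptochrome gene, *Cry2*, ranged from 2.65 to 4.69 with a median of 3.98. Thus *Cry1* stood above every other member in every replicate.

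*Clock*, which encodes the histone acetyltransferase partner of BMAL1, ranged from 2.72 to 5.80 RPKM (median 4.01), and *Arntl* from 1.57 to 2.51 (median 1.86). The period genes, whose proteins hold the cryptochromes in the repressor complex, were unequal. *Per1* ranged from 1.37 to 3.39 (median 2.23), *Per3* from 0.481 to 0.604 (median 0.529), and *Per2* averaged 0.0677 ± 0.0508 (SD, n = 6), with 0 to 58 reads in any library. *Nr1d2* ranged from 3.40 to 6.71 (median 4.44), *Nr1d1* from 0.672 to 2.08 (median 1.18), and *Bhlhe40* from 0.893 to 3.01 (median 1.99).

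By mean level the order was *Cry1* (9.32 ± 2.12, SD, n = 6), *Nr1d2* (4.57 ± 1.15), *Clock* (4.12 ± 1.28), *Cry2* (3.79 ± 0.822), *Per1* (2.34 ± 0.846), *Arntl* (2.00 ± 0.390), *Bhlhe40* (1.82 ± 0.797), *Nr1d1* (1.32 ± 0.599), *Per3* (0.538 ± 0.0461) and *Per2*. *Cry1*, *Nr1d1* and *Per3* did not overlap with the next gene in this order, and *Cry2* exceeded *Per1* by more than the larger SD. The neighbours *Nr1d2*, *Clock* and *Cry2*, and likewise *Per1*, *Arntl*, *Bhlhe40* and *Nr1d1*, did not differ beyond their spread. The replicates also fell into pairs: *Bhlhe40* was at 0.588–0.941 RPKM in replicates 3 and 4 in all fractions and at 1.95–3.70 in the others, and whole-cell *Clock* averaged 2.76 in replicates 3 and 4 against 5.59 in replicates 1 and 2. Replicates 3 and 4 differ from the others in labeling times as well, but the shifts were also seen at times that pairs share. At 20 min mean nuclear *Bhlhe40* was 14.8 CPM (read counts scaled to library size) in replicates 1 and 2 and 4.96 in replicates 3 and 4. At 60 min it was 5.17 in replicates 3 and 4 and 12.7 in replicates 5 and 6. Whole-cell *Clock* at 20 min was 72.7 CPM in replicates 1 and 2 and 50.7 in replicates 3 and 4. What else differs between the pairs was not tested. Of the 11 markers of other cell types, 4 (*Gata4*, *Eomes*, *Pax6* and *Cdx2*) were higher in whole cells of both these replicates than in the others, for example *Eomes* with a mean of 2.39 RPKM against 0.991 and 0.904 in the other pairs and *Pax6* with 1.18 against 0.273 and 0.298. The summed level of that list was 10.4–10.6 RPKM in replicates 3 and 4 and 6.15–11.7 in the others, *Col3a1* was at 0 in both, and all 7 stem cell markers were higher in both as well. The part of these shifts in the result was not tested.

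The genes lie on 9 chromosomes of GRCm38, with *Per1* and *Nr1d1* both on chromosome 11. The activators *Clock* (chr5:76209868-76304792, minus strand) and *Arntl* (chr7:113207465-113314126, plus) are the longest. The period genes are *Per1* (chr11:69095217-69109960, plus), *Per2* (chr1:91415982-91459324, minus) and *Per3* (chr4:151003652-151044665, minus), and the cryptochrome genes *Cry1* (chr10:85131700-85185064, minus) and *Cry2* (chr2:92403646-92434043, minus). The REV-ERB genes are *Nr1d1* (chr11:98767932-98775333, minus) and *Nr1d2* (chr14:18204054-18239127, minus), and *Bhlhe40* (chr6:108660629-108666925, plus) is the shortest. Some reads may be shared with a neighbour. *Per3* lies within *Camta1* on the same strand, the ends of *Nr1d1* and *Thra* overlap on opposite strands, and *Bhlhe40* has an antisense partner, *0610040F04Rik*. The library kit was strand-specific, but the strand option used in counting is not named in the sources used here. Overlaps on the same strand cannot be separated by strand in either case. How reads in such overlaps were assigned was not examined, so these values are uncertain.

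**Figure D1:**
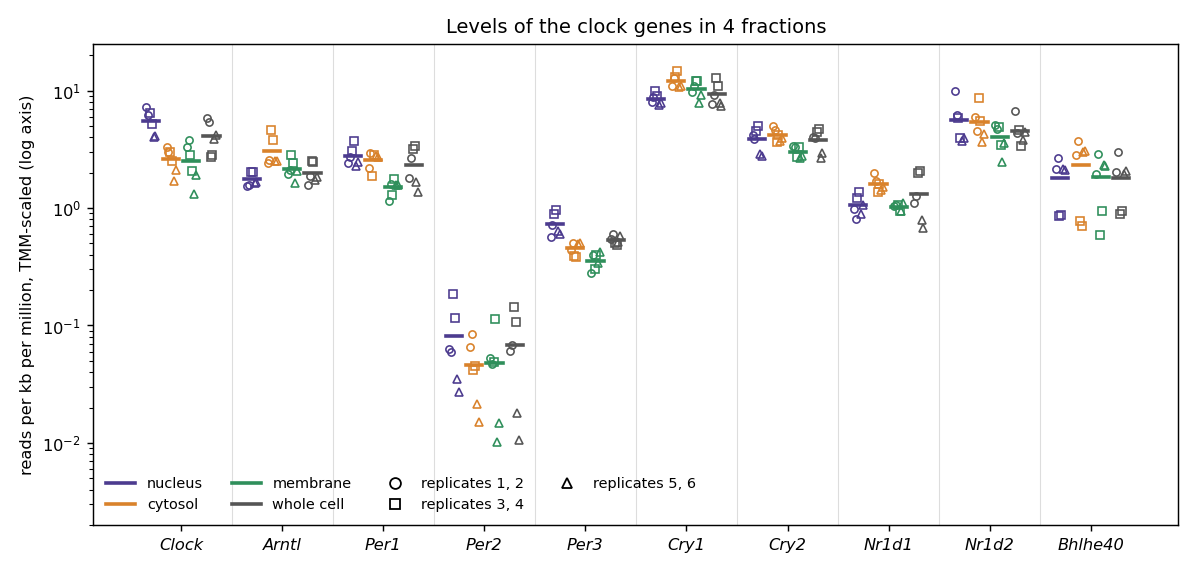
Levels of the 10 clock genes (RPKM on a log axis) in the nucleus, cytosol, membrane fraction and whole cells; each point is 1 replicate and each bar the mean of 6. *Cry1* is highest with a whole-cell mean of 9.32 and *Per2* lowest with 0.0677.

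To ask where the mRNAs resided, reads were summed over the labeling times of each replicate and the fractions were compared with edgeR's quasi-likelihood test on 19040 genes. 2 members were higher in the nucleus than in the cytosol, *Clock* and *Per3*, against 32.2% of all genes tested. 3 were lower, *Arntl*, *Cry1* and *Nr1d1*, against 30.9%. These shares are close to the background of the test, and the members' median difference was −0.03 on the log2 scale beside −0.0065 for the median gene. The partners of the activator pair thus lay on opposite sides.

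*Clock* ranged from 4.01 to 7.20 RPKM in the nucleus (median 5.73) and from 1.70 to 3.29 in the cytosol (median 2.74). Every nuclear replicate was above every cytosolic one. The log2 difference was 1.09 (SE 0.24, adjusted p = 0.000322), a 2.13-fold higher level, and within replicates it was 0.97–1.24.

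*Arntl* ranged from 1.56 to 2.04 RPKM in the nucleus (median 1.66) and from 2.42 to 4.65 in the cytosol (median 2.52), without overlap. The log2 difference was −0.81 (SE 0.17, edgeR adjusted p = 0.000281). It was past the threshold in all alternatives but the one without a filter on low counts, where it was −0.45 with an adjusted p of 0.0552.

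In the repressor arm, *Per3* ranged from 0.571 to 0.972 RPKM in the nucleus (median 0.674) and from 0.386 to 0.508 in the cytosol (median 0.469), and the groups did not overlap (log2 difference 0.69, SE 0.16, edgeR adjusted p = 0.000500). *Cry1* ranged from 7.50 to 9.86 (median 8.47) against 10.8 to 14.6 (median 11.9), again without overlap (−0.52, SE 0.14, adjusted p = 0.00262). *Nr1d1* ranged from 0.809 to 1.38 (median 1.02) against 1.36 to 1.97 (median 1.56), and the highest nuclear value was above the lowest cytosolic one (−0.60, SE 0.22, adjusted p = 0.0227). Groups that did not overlap were thus found for 2 members higher in the nucleus (background 20.6%) and 2 lower (19.7%).

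The calls of *Cry1* and *Nr1d1* depended on the replicates. *Cry1* had an adjusted p of 0.22 without replicate 1, of 0.288 without replicate 2 and of 0.0587 without replicate 5, of 0.475 without a filter on low counts and of 0.0713 with each library as a sample. *Nr1d1* lost its call in the same 5 cases and under DESeq2 (adjusted p = 0.0759) and its size factors (0.092), and when each pair of replicates was fitted alone its difference was −1.05 in replicates 1 and 2, −0.40 in replicates 5 and 6 and 0.17 in replicates 3 and 4. In that fit of replicates 3 and 4 the median gene stood at 0.47 rather than near 0. Relative to the median gene, over 13 alternatives, *Clock* stayed at 1.00–1.14, *Per3* at 0.57–0.76, *Arntl* at −0.91 to −0.69, *Cry1* at −0.61 to −0.45 and *Nr1d1* at −0.70 to −0.49. Scaling by total counts rather than by TMM moved the median gene to 0.35.

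The other members did not pass the test. The difference was 0.13 for *Per1* (95% interval −0.26 to 0.52), −0.11 for *Cry2* (−0.42 to 0.20), 0.04 for *Nr1d2* (−0.44 to 0.53) and −0.38 for *Bhlhe40* (−1.22 to 0.46), so differences of these sizes were not detectable. *Cry2* changed sign with the scaling. *Per2*, at 9–82 summed nuclear reads per replicate, had 0.80 (adjusted p = 0.219).

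Between the membrane fraction and the cytosol, 4 members were lower in the membrane fraction, *Per1*, *Nr1d1*, *Arntl* and *Cry2*, against 14.3% of genes, and 0 were higher, against 21.5%. *Per1* ranged from 1.15 to 1.77 RPKM in the membrane fraction (median 1.58) and from 1.88 to 2.97 in the cytosol (median 2.74). The groups did not overlap, and the log2 difference was −0.77 (SE 0.20, edgeR adjusted p = 0.00300), the one of the 4 that passed without any single replicate.

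*Cry2* ranged from 2.68 to 3.36 RPKM against 3.66 to 4.98 (−0.47, SE 0.16, edgeR adjusted p = 0.0201) and *Nr1d1* from 0.939 to 1.10 against 1.36 to 1.97 (−0.64, SE 0.22, adjusted p = 0.0272), both without overlap. *Arntl* ranged from 1.65 to 2.82 against 2.42 to 4.65 and did overlap (−0.50, SE 0.17, adjusted p = 0.0257). The 3 members with separate ranges stood against 5.31% of genes lower and 16.5% higher in that way. *Arntl* and *Nr1d1* did not pass without replicate 1, 2 or 4, and *Cry2* did not without replicate 1 or 2. With the replicate as a block 7 members were lower, against 27.1% of genes in that fit, adding *Cry1* (−0.24), *Nr1d2* (−0.44) and *Per3* (−0.36). *Clock* was at −0.04 (95% interval −0.51 to 0.43). The members' median was −0.40 and that of all genes −0.14.

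**Figure D2:**
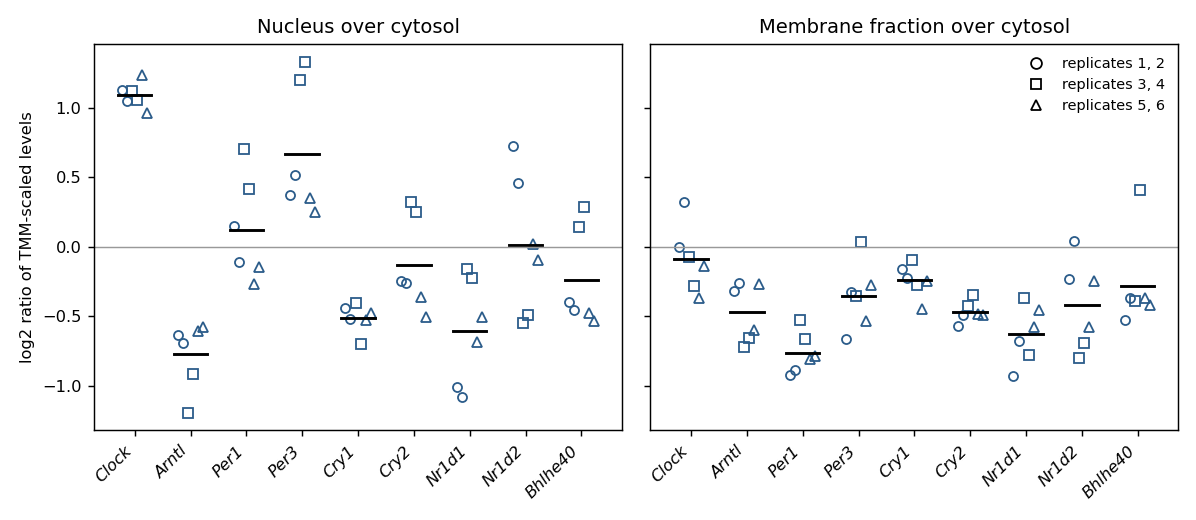
Log2 ratio of the level of 9 clock genes in the nucleus or membrane fraction over the cytosol; points are the 6 replicates and bars the mean. *Clock* lies between 0.97 and 1.24 in the nucleus, and *Per1* is the lowest member in the membrane fraction.

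Because 4sU itself can alter cells, the levels were compared over labeling time. In the nucleus *Nr1d1*, the REV-ERBα gene, was the 1 member of 10 higher at 120 than at 20 min, against 1.58% of 17810 genes, and 0 were lower, against 1.38%. Its level was 2.89 and 4.90 CPM (read counts scaled to library size) at 20 min in replicates 3 and 4, 5.62 and 5.93 at 40 min, 5.71 and 5.93 at 60 min and 7.10 and 9.50 at 120 min. Both replicates were lowest at 20 min and highest at 120 min. The log2 difference was 1.06 (SE 0.27, edgeR adjusted p = 0.0434). The 120 min libraries behind it were left out of the measurements of new RNA. Their conversion rates were 10.4 and 12.2%, beside 3.81 and 3.96% in nuclear replicates 5 and 6 at 120 min, although all are labelled 100 µM. The part of the dose in this result was not tested.

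The call was lost when any one of the 6 replicates was left out of the fit, which shares 1 estimate of the spread (0.92–1.25, adjusted p 0.0724–0.113). In replicates 5 and 6 *Nr1d1* was at 3.06 and 3.85 CPM at 60 min and at 3.83 and 4.36 at 120 min (0.24, adjusted p = 1). In whole cells the 120 to 20 min difference was 0.63 (adjusted p = 0.401). With the replicate as a block, *Cry2* (−0.34) and *Nr1d2* (−0.57) were also lower in the nucleus, where that fit called 7.16% of genes higher and 6.6% lower.

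No member passed in the other 7 comparisons (edgeR; DESeq2 called 0 in each). In the nucleus at 30 against 15, 60 against 20 and 120 against 60 min, 0 of 10 passed, as did 0% of genes, and 0 had an unadjusted p under 0.05. In whole cells 0% of 16858 genes passed at 30 against 15, 60 against 20 and 120 against 60 min, and 0.0712% were higher and 0.0415% lower at 120 than at 20 min; 0, 2, 0 and 1 members had an unadjusted p under 0.05. Whole-cell *Clock* was at 47.8 and 53.6 CPM at 20 min and at 36.0 and 28.1 at 60 min in replicates 3 and 4 (−0.66, SE 0.22, adjusted p = 0.934). The 120 against 60 min comparison in whole cells rests on replicate 6, whose times were in doubt. Immediate early genes, which respond to stress and to clock-setting signals, were called in 0 of 7 tested in the nucleus and 0 of 6 in whole cells at 120 against 20 min.

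The new share of an mRNA was taken as T-to-C conversions per T, divided by the conversion rate of the library. It could be followed for 9 members; *Per2* stayed under 400 T counts in most libraries. Most clock mRNAs had a larger new share than the median gene. In whole cells, *Clock* had shares at 60 min of 0.402, 0.325, 0.630 and 0.784 in replicates 3 to 6, and *Nr1d1* of 0.202, 0.311, 0.525 and 1.15. *Cry1* had 0.118, 0.069, 0.195 and 0.439. In each of these genes the library labelled replicate 6 was highest.

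Against all 13435 genes with a whole-cell share at 60 min (median 0.212), *Nr1d1* stood at percentile 93.6, *Clock* at 93.2, *Cry2* at 90.5, *Bhlhe40* at 87.1, *Nr1d2* at 82.6, *Per1* at 80.3, *Per3* at 74.2, *Arntl* at 61.8 and *Cry1* at 48.0. Without replicate 6 the percentiles were 86.5 for *Nr1d1*, 93.0 for *Clock* and 39.6 for *Cry1*. In the nucleus the shares ran from *Clock* (0.551, 0.429, 0.596 and 0.497 in replicates 3 to 6, percentile 91.1) to *Cry1* (0.289, 0.194, 0.229 and 0.195, percentile 44.1). The shares of these nuclear replicates of *Clock* and *Cry1* did not overlap.

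Fitting an exponential approach to 1 with a delay of 5 min to the whole-cell shares gave half-lives of 61.4 min for *Nr1d1* (54.7–74.4 with each replicate left out in turn), 67.3 min for *Clock* (62.7–78.8), 79.1 min for *Cry2* (72.8–89.3) and 80.5 min for *Bhlhe40* (74.6–86.7). *Per1* had 98.5 min (91.8–128), *Nr1d2* 99.4 min (89.1–122), *Per3* 131 min (123–162), *Arntl* 160.0 min (149–204) and *Cry1* 213 min (195–268). The median over 12673 genes was 212 min. The study found longer half-lives by such a direct fit than by its model, and named length-dependent labeling as part of the likely reason. The members run from 6.30 kb (*Bhlhe40*) to 107 kb (*Arntl*). No correction for gene length was made here, and its part in the order of the members was not tested. By the fit to all libraries, 8 members were thus below the median gene and *Cry1* at it. The ranges above come from fits that share most of their libraries and do not measure the spread of replicates. Fits of single replicates gave 1.05–118 min for *Nr1d1*, 49.7–115 min for *Bhlhe40* and 58.5–306 min for *Per1*. They gave 61.8–202 min for *Nr1d2* and 89.1–301 min for *Per3*, so these neighbours overlap. Without replicate 6 the half-lives were 71.3 min for *Nr1d1*, 70.4 min for *Clock*, 156 min for *Arntl* and 218 min for *Cry1*.

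**Figure D3:**
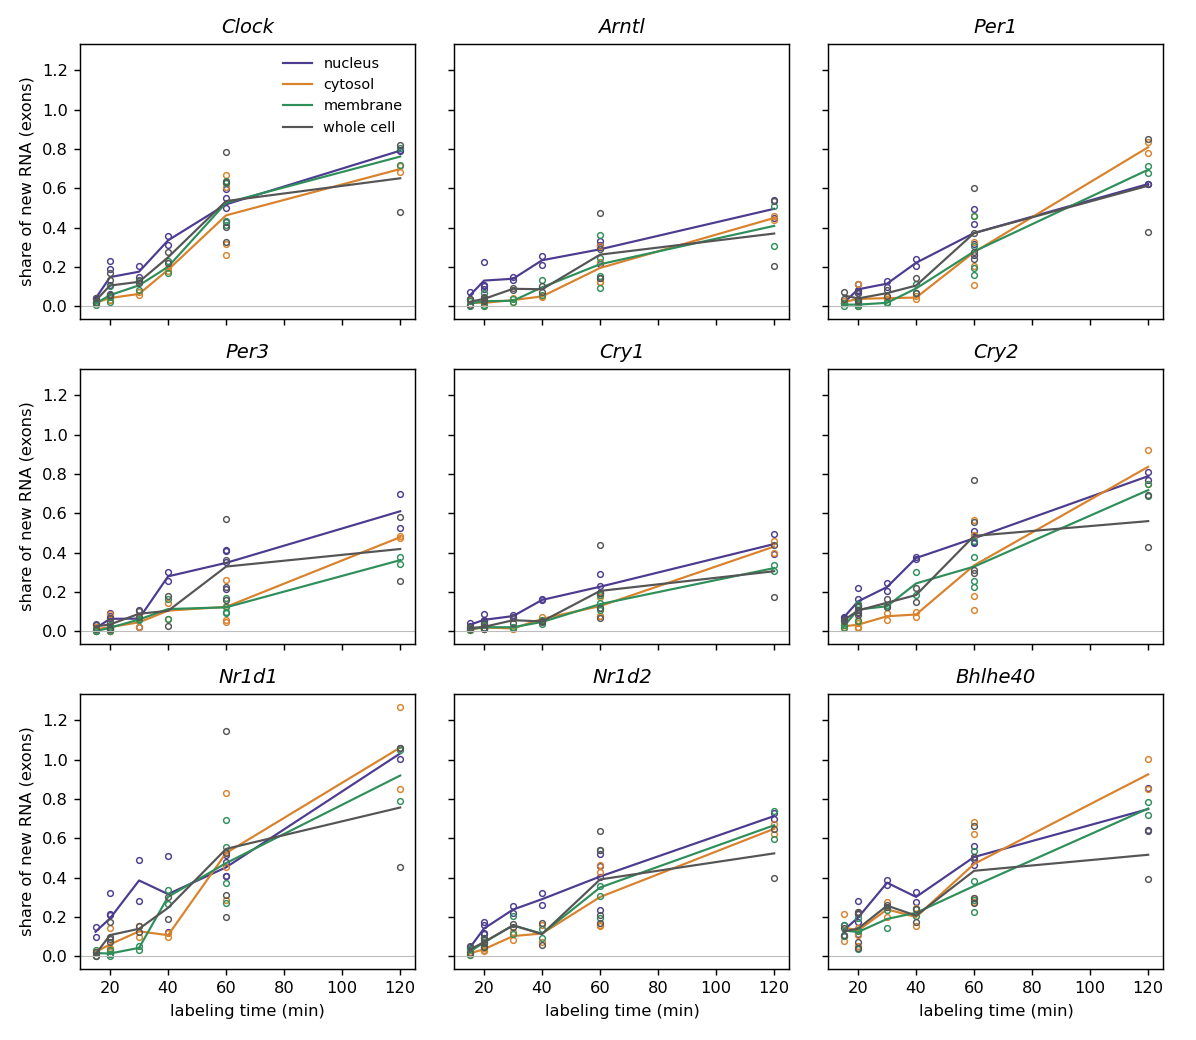
Share of new to total mRNA against labeling time (min) for the 9 measured clock genes in each of the 4 fractions; points are libraries and lines join the means. In whole cells at 60 min the mean is 0.535 for *Clock* and 0.205 for *Cry1*; the library labelled replicate 6 lies above replicate 5 at 60 min and below it at 120 min.

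To compare the repressor arm with the activators, each gene's whole-cell share was pooled over the labeling times of a replicate and set against that of *Arntl* or *Clock* in the same replicate (limma on 12672 genes). The activators themselves differed: pooled shares of *Clock* were 0.0805 to 0.780 (median 0.279) and those of *Arntl* 0.0538 to 0.484 (median 0.104), and *Arntl* was lower than *Clock* by a log2 difference of −0.87 (adjusted p = 0.000688). The repressor arm lay on both sides of *Arntl* and mostly at or below *Clock*. These shares were not corrected for gene length either, and its part in the differences was not tested.

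Against *Arntl*, *Clock* (0.87, adjusted p = 0.000870) and 4 of the 7 repressor genes measured had a higher share, with 20.3% of all genes doing so, and 1 repressor gene a lower share, with 48.1%. *Bhlhe40*, with pooled shares of 0.207 to 0.606 (median 0.223), was higher by 1.06 (limma adjusted p = 0.000995). *Nr1d1* (0.103 to 0.886, median 0.221) was higher by 0.98 (adjusted p = 0.000114), and *Cry2* (0.0967 to 0.649, median 0.234) by 0.85 (adjusted p = 0.000352). *Nr1d2*, which has the same role as *Nr1d1*, had 0.102 to 0.626 (median 0.145) and was higher by 0.56 (adjusted p = 0.00252). The lowest and highest pooled shares of all these genes and of *Arntl* overlap, since the labeling times differ between replicates and the test rests on the difference within replicates.

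*Cry1*, the other cryptochrome, had 0.0292 to 0.367 (median 0.0705) and was lower than *Arntl* by −0.47 (limma adjusted p = 0.0129), a call not made in the cytosol (−0.36, 0.0541) or the membrane fraction (−0.33, 0.215). *Per1* (0.0423 to 0.727, median 0.182) stood at 0.40 and did not pass (adjusted p = 0.0729), but did without replicate 2 (0.58, adjusted p = 0.00582). *Per3* stood at 0.12 (95% interval −0.17 to 0.40), with negative values in each of the other fractions.

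Against *Clock*, 0 of 8 members were higher in limma, with 3.03% of genes higher, and 4 of 8 were lower, *Arntl* and 3 repressor genes, against 80.5% of genes. An unadjusted p under 0.05 was found for the same 4. *Cry1* was lower by −1.34 (limma adjusted p = 2.64e-05), *Per3* by −0.75 (adjusted p = 0.000828) and *Per1* by −0.47 (adjusted p = 0.0228, and 0.0911 without replicate 2). For *Cry2* the difference was −0.02 (95% interval −0.36 to 0.33), for *Nr1d1* 0.11 (−0.25 to 0.47), for *Nr1d2* −0.31 (−0.72 to 0.10) and for *Bhlhe40* 0.19 (−0.34 to 0.71), so a difference from *Clock* was not detectable. Without replicate 6 the calls were made for the same members. An exact sign-flip test over 6 replicates cannot give a p under 0.03125. After adjustment over all genes it called 0 members against *Arntl*, where each member called by limma had the same adjusted p of 0.0514. Against *Clock* it called 4. With such a floor the adjusted p depends on how many genes reach it, so these counts do not compare the members.

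**Figure D4:**
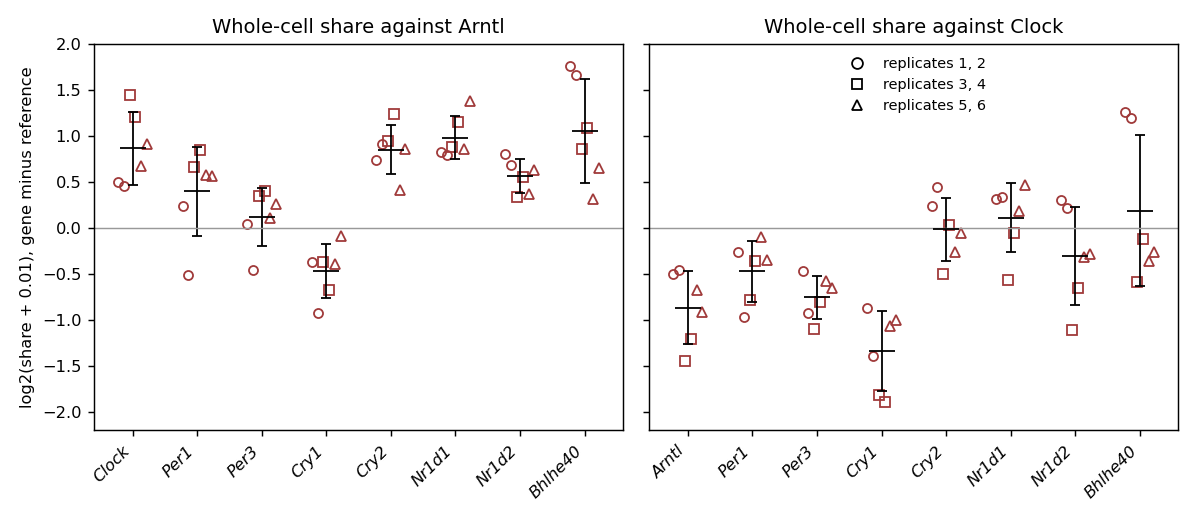
Log2 difference of the pooled whole-cell share of each clock gene from *Arntl* (left) and *Clock* (right); points are the 6 replicates, dashes the mean and error bars the SD. *Bhlhe40* is highest against *Arntl* (1.06) and *Cry1* lowest against *Clock* (−1.34).

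At 60 min the share in the nucleus was compared with that in the cytosol and the membrane fraction (limma, 12230 genes, replicates 3 to 6). *Per3* was the 1 of 9 members with a higher share in the nucleus, against 21.3% of genes, and 0 were lower, against 0.63%. Its shares were 0.411, 0.215, 0.355 and 0.411 in the nucleus and 0.059, 0.0486, 0.259 and 0.130 in the cytosol. All but 1 nuclear value lay above all cytosolic ones. The log2 difference was 1.64 (95% interval 0.72 to 2.57, adjusted p = 0.0195) and did not pass without replicate 3 (adjusted p = 0.194) or replicate 4 (0.107).

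The other members ranged from −0.12 (*Nr1d1*) to 0.87 (*Cry1*), and the median of the 9 was 0.56 beside 0.69 for all genes. *Cry1* was the 1 member whose groups did not overlap, against 29.7% of genes. The values varied by pair of replicates: within replicates 3 and 4, where the median gene was at 1.13, 6 of 9 members were higher, against 51.4% of genes in that fit (*Per3* 2.28, *Cry2* 1.62, *Cry1* 1.51, *Per1* 1.35, *Arntl* 1.01 and *Bhlhe40* 0.72), and within replicates 5 and 6, with a median of 0.23, 0 of 9 were, against 0.0683%. Only *Per3*, *Cry2*, *Cry1* and *Per1* lay above the median gene of replicates 3 and 4 among these 6. Estimated conversion rates at 60 min were 5.83–8.29% in replicates 3 and 4 and 2.38–3.99% in replicates 5 and 6, and their part in the result was not tested.

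Between the membrane fraction and the cytosol 0 of 9 members passed in limma, with 0 at an unadjusted p under 0.05, against 0.0327% of genes higher and 3.68% lower. The differences ran from −0.34 (*Bhlhe40*) to 0.29 (*Nr1d2*), and 0 of 9 had separate groups, against 0.303% of genes. DESeq2, a count test, was not run on shares.

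Introns are removed soon after they are made, and the new share in introns therefore serves as a measure of young transcripts. At 20 min in the nucleus 5 of 7 members with enough T counts had a higher share in introns, against 85.4% of 11282 genes, and 0 a lower one, against 0.151%. *Cry1* had intron shares of 0.492, 0.552, 0.752 and 0.638 in replicates 1 to 4 and exon shares of 0.058, 0.0356, 0.0871 and 0.0522. All intron values were above all exon values, and the log2 difference was 3.21 (limma adjusted p = 1.36e-05) beside 1.98 for the median gene.

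*Arntl* had intron shares of 0.220, 0.478, 0.724 and 0.477 and exon shares of 0.0866, 0.101, 0.225 and 0.109, with 1 exon value above the lowest intron value (1.77, limma adjusted p = 0.00232). *Per1* was at 1.91 (adjusted p = 0.000417). *Clock* had intron shares of 0.180, 0.252, 0.510 and 0.303 and exon shares of 0.0605, 0.11, 0.232 and 0.190. As groups these overlap, but within each replicate the intron share was the higher one, as it was in *Arntl*. The main test did not pair introns and exons of the same library. In that test the difference of 1.08 for *Clock* (limma adjusted p = 0.0436) did not pass when any one of the 4 replicates was left out. *Cry2* was at 1.00 (adjusted p = 0.0470), and it did not pass without replicate 2, 3 or 4. *Per3* (0.88, adjusted p = 0.137) and *Nr1d2* (0.58, adjusted p = 0.166) did not pass. With the replicate as a block *Nr1d2* passed (adjusted p = 0.0353), making 6 of 7 members against 90.1% of genes.

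Reads in the introns of *Clock* were abundant outside the nucleus. In the cytosol its introns held 64178–117293 T per library, 131–230% of the T in its exons. Their mean share at 60 min was 0.106 there, beside 0.462 for *Clock* exons and 0.106 for the exons of *Ube2n*, a ubiquitin-conjugating enzyme gene. The processed pseudogene *Ube2n-ps1* (chr5:76232612-76233070) lies within a *Clock* intron on the same strand, and the part of its reads in the intron values was not tested.

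The nuclear excess of *Clock* was unequal along its mRNA. T counts per kilobase in the last exon, which holds the 3′ end of the transcript, gave a nucleus over cytosol log2 ratio of 1.26 ± 0.0871 (SD, n = 6), while all upstream exons together gave 0.22 ± 0.22. The difference of 1.04 ± 0.21 was positive in 6 of 6 replicates. The last exon of 7.01 kb held 89.7% of nuclear and 80.9% of cytosolic T counts of the gene, so most of the level in *Clock* is that of this exon.

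Within that exon the excess varied. The distal stretch (chr5:76209868-76212176) held 191 ± 38.7 T per kilobase, scaled to library size, in the nucleus and 45.4 ± 8.35 in the cytosol (SD, n = 6). The middle stretch (chr5:76212177-76213852) held 792 ± 111 and 321 ± 33.6, and the proximal one (chr5:76213853-76216878) 313 ± 109 and 162 ± 55.6. Upstream exons held 103 ± 42.9 and 89.0 ± 36.7. The distal stretch thus had the largest nuclear excess of these 4 and the upstream exons the smallest.

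The last exon was also above the upstream exons in 6 of 6 replicates in *Nr1d2* (0.14 against −0.64), *Per1* (0.57 against −0.07), *Arntl* (−0.54 against −1.06) and *Cry2* (−0.06 against −0.40). For these and *Clock* the exact sign-flip test gave p = 0.03125 (two-sided), the smallest that 6 replicates allow. With 9 genes tested, these p-values would not pass 0.05 after adjustment, and the measure was not taken over all genes. It was higher in 5 of 6 replicates in *Per3* and *Bhlhe40*, in 4 of 6 in *Cry1* and in 3 of 6 in *Nr1d1*.

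**Figure D5:**
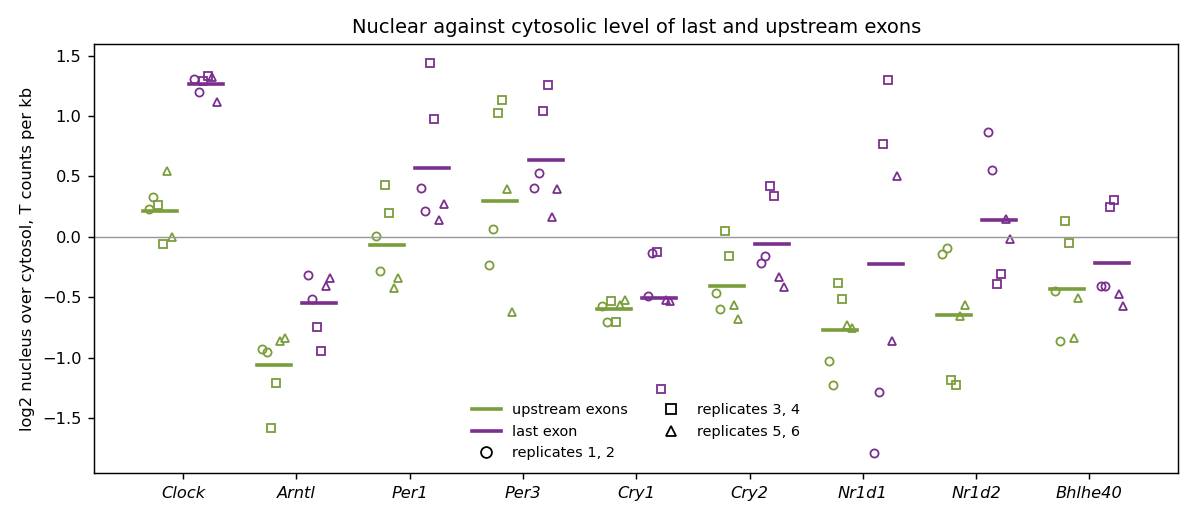
Nucleus over cytosol log2 ratio of T counts per kilobase in the last exon and in the upstream exons of 9 clock genes; points are the 6 replicates and bars the mean. In *Clock* the last exon lies at 1.26 and the upstream exons at 0.22.

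At short labeling the share of new RNA in the nucleus also differed along the genes. At 20 min the mean nuclear share was 0.239 in the last and 0.0438 in the upstream exons of *Arntl*, 0.216 and 0.0414 in *Bhlhe40*, 0.193 and 0.0389 in *Cry2*, 0.155 and 0.0588 in *Nr1d2* and 0.128 and 0.0353 in *Cry1*. In these 5 genes the groups did not overlap and the last exon was higher in 4 of 4 replicates. The exact sign-flip p was 0.125, the smallest possible with 4, and 0.225 after adjustment over 9 genes. The measure was not taken over all genes, so it is not read as particular to the clock genes. The study itself reports a median nuclear share that falls with distance from the 3′ end over exons, most at short labeling. In *Clock* the means were 0.164 and 0.0401 (higher in 3 of 4), and in *Per1* they were 0.0776 and 0.0841. *Per3* had 0.0732 and 0.0308 (higher in 3 of 4), and *Nr1d1* 0.201 and 0.181 (higher in 2 of 4).

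By distance from the 3′ end, the 30 min nuclear share of *Clock* was 0.191 within 5 kb, 0.0304 at 5–30 kb and 0.0242 beyond 30 kb, and at 60 min it was 0.541, 0.448 and 0.396. *Arntl* at 20 min had 0.231, 0.0286 and 0.0261, and *Cry1* 0.111, 0.0371 and 0.00883. In all 3 genes the mean share was lowest in the exons farthest from the 3′ end. At 5–30 kb and beyond 30 kb the values were low and close in *Clock* at 30 min and in *Arntl*. No order between those distances is read from them.

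Among 19 further genes of the clock (kinases, ubiquitin ligases, output factors and receptors), 17 were tested for levels; *Rorb*, a ROR receptor that acts opposite to REV-ERB, had 0–2 reads. Between nucleus and cytosol 1 was higher, *Timeless* (0.68), beside 32.2% of all genes, and 7 were lower, beside 30.9%, among them the output factor *Dbp* (−0.89), the ubiquitin ligase component *Btrc* (−0.81), the repressor of D-boxes *Nfil3* (−0.77) and the period kinases *Csnk1e* (−0.57) and *Csnk1d* (−0.52). In the membrane fraction 0 were higher, beside 21.5%, with edgeR (4 of 17 had an unadjusted p under 0.05 in either direction), and 2 lower, beside 14.3%, *Csnk1e* (−0.46) and *Csnk1d* (−0.33). Of 11 with a share, *Csnk1e* was higher in the nucleus than in the cytosol (1.22), beside 21.3% of all genes.

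Levels alone were used to find the 3 protein-coding genes most like a member over 24 values (6 replicates in 4 fractions), by the root mean square distance of centred log2 CPM. Among 10105 genes they were *Rc3h2* (0.128), *Ago3* (0.170) and *Pcmtd1* (0.173) for *Clock*, beside a median distance of 0.875. For *Per1* they were *Ciz1* (0.204), *Kif18b* (0.205) and *Ube2o* (0.210), beside 0.645, and for *Nr1d1* *Dpp9* (0.138), *Arhgap1* (0.154) and *Tfe3* (0.159), beside 0.536.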

How the data were processed

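The clock genes and all gene lists were chosen with earlier results of these data known. Poly(A)-selected RNA of mouse embryonic stem cells was sequenced in 4 fractions. The deposited read counts per gene were made by the authors on GRCm38, and the submitters' processing notes name STAR 2.7.6, HTSeq 0.11.1 and RSEM 1.3.3. Rows that name no gene (30.4–48.8% of a library) were left out. The authors also deposited counts of T and of T-to-C conversions for exons and introns, the conversion rate of each library as a fraction, and the ratio of converted to all T divided by that rate, which is the share of new RNA and can exceed 1.

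Counts were summed per replicate and fraction and tested with edgeR 4.0.16 (R 4.3.3; filterByExpr, TMM scaling, quasi-likelihood test). Shares were tested as log2(share + 0.01) with limma 3.58.1 for genes whose T counts reached 400 in each library, so differences of low shares are understated. p-values were adjusted by Benjamini-Hochberg over all genes tested, with a threshold of 0.05. Exact tests were two-sided. Tables and plots were made with Python 3.11.15, numpy 2.4.6, pandas 2.3.3, scipy 1.17.1 and matplotlib 3.10.9. The scripts were tested on simulated data. Alternatives were DESeq2 1.42.0, its size factors, other filters and pseudocounts, single libraries, leaving out each replicate, and the replicate number as a block. Fractions with the same replicate number deviated together in levels, which was taken as pairing (correlations of 0.141–0.560 between nucleus and cytosol and 0.691–0.780 between membrane fraction and cytosol). The own number was not the best match for replicates 3 and 6 between nucleus and cytosol. The same held for replicate 6 between membrane fraction and cytosol, so the pairing is uncertain there. The text names the members, then 19 other clock genes and 8 immediate early genes listed by symbol, some of which are not reported here by name, and for *Per1*, *Nr1d1* and *Clock* the 3 most similar genes with at least 5 CPM. Depth limits *Per2*, *Nr1d1* and *Per3* most, and counting error alone is covered by read numbers.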

Additional observations from a re-analysis of the deposited data

Results flagged for a closer look

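The 115 groups tested were levels in 6 replicates and shares in 4 libraries. In 5 of them 1 sample stood apart from the others by a gap that was large against the group's range. Chance gives such a pattern in about 1 in 20 groups. All 5 were exon shares at 20 min, in groups of 4, so the rate among shares is higher than over all 115. *Per1* in the cytosol had a share of 0.113 in replicate 3, with 0.00346–0.0192 in the others. *Per1* in whole cells had 0.0687 in replicate 4, with 0.0275–0.0313 in the others. *Per3* in the cytosol had 0.0854 in replicate 4 and 0 in the others. *Nr1d1* in the cytosol had 0.142 in replicate 4, with 0.0259–0.0402 in the others. *Arntl* in the nucleus had 0.225 in replicate 3, with 0.0866–0.109 in the others, and these values enter the comparison of its introns and exons.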

How the results depend on the processing

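Of 52 results on single clock genes, 21 kept direction and side of the threshold under the alternatives tested for them. In fits of single pairs of replicates and relative to the median gene, a turn of direction was counted only where the main result was called. Some of the 21 therefore turned in a single pair. Members called lower in the membrane fraction numbered 4. They were 7 with each library as a sample, 7 without mitochondrial genes, 1 without a filter, 7 with the replicate block and 1–4 with a replicate left out. Of all genes, 14.3% were called lower in the main fit and 27.1% with the block. In either direction 6826 genes were called, and 5601–7374 with a replicate left out. The counts of members are therefore not read as a result on the clock genes. Between nucleus and cytosol 5 members were called, 2 without a filter and 3–5 with a replicate left out; genes split into 6140 higher and 5891 lower, but into 7158 and 4998 under DESeq2 and 9804 and 3504 without a filter. In the nucleus, 528 genes were called at 120 against 20 min, 1181 by DESeq2, 1242 without a filter, 2452 with the replicate block and 104–565 with a replicate left out; members numbered 1, then 2 without a filter, 3 with the block and 0 with a replicate left out. At 60 against 20 min 0 genes became 274 by DESeq2, 956 without a filter, 1392 with the block and 0–1381 with a replicate left out. Without a filter, 80 genes (120 against 60 min) and 4 (30 against 15 min) were called in the nucleus in place of 0, and 49, 6 and 42 in whole cells at 120 against 60, 30 against 15 and 60 against 20 min. In whole cells at 120 against 20 min 19 genes became 116 by DESeq2, 227 without a filter, 31 with the block and 0–77 with a replicate left out.

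For shares, 2676 genes differed between nucleus and cytosol, 4926 with the replicate block and 51–3118 with a replicate left out; members numbered 1, 0 at a minimum of 2000 T counts and 0–1 with a replicate left out. Between membrane fraction and cytosol 454 genes became 747 with the block and 19–301 with a replicate left out. For introns 5 members became 3 at a pseudocount of 0.001 and 3–4 with a replicate left out, and 6 with the replicate block. Of all genes 9652 were called in the main fit and 8593–9687 with a replicate left out. The exact sign-flip test against *Arntl* called 0 genes in place of 8660 and 0 members in place of 6. The calls of members that the replicate block changed are given in the text; in shares and over time the same-numbered samples were less clearly paired (correlations of 0.0197–0.552).

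Directions turned in the following results, and the cause was not tested. *Cry2* between nucleus and cytosol (−0.11) was 0.0558 under DESeq2 and 0.0557 under its size factors, 0.26 without a filter and with each library as a sample, and −0.20 to 0.21 with a replicate left out (0.21 without replicate 1 or 2, 0.06 without replicate 5). *Cry2* against *Clock* (−0.02) was 0.10 in the nucleus and −0.11 to 0.080 with a replicate left out. *Nr1d1* between nucleus and cytosol (−0.60) was 0.17 within replicates 3 and 4, its share difference there (−0.12) was −0.32 to 0.18 with a replicate left out, and against *Clock* (0.11) it was −0.23 in the membrane fraction. *Per3* against *Arntl* (0.12) became −0.15 for cytosolic, −0.0918 for membrane and −0.24 for nuclear shares. *Bhlhe40* against *Clock* (0.19) was −0.0267 to 0.34 with a replicate left out, and *Clock* between membrane fraction and cytosol (−0.04) was −0.15 to 0.00266. In fits of single pairs, more directions turned: within replicates 3 and 4 *Bhlhe40* between nucleus and cytosol (−0.38) was 0.58 and *Cry2* 0.65, and *Per3* between membrane fraction and cytosol was 0.02; within replicates 5 and 6 the share difference of *Per1* (0.56) was −0.22 and that of *Cry2* (0.77) −0.08. The share difference within replicates 5 and 6 was −0.29 for *Bhlhe40* (0.21) and −0.22 for *Clock* (0.26), and that within replicates 3 and 4 was 0.33 for *Nr1d1*. Between nucleus and cytosol *Nr1d2* (0.04) was −0.17 within replicates 3 and 4, and *Per1* (0.13) was −0.01 within both other pairs. Between membrane fraction and cytosol *Bhlhe40* (−0.36) was 0.21 within replicates 3 and 4, and *Clock* was 0.16 within replicates 1 and 2. Depth limits *Per2*, whose share was not tested.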

Other observations

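Other genes of the clock covered a wider range of new shares than the members. In whole cells 7 of 11 other clock genes with a share were higher than *Arntl*, beside 20.3% of all genes tested, and 3 were lower, beside 48.1% (limma, adjusted over all genes). Among the higher genes were *Nfil3* (1.19, adjusted p = 0.000200) and *Ciart*, a repressor of the CLOCK and BMAL1 pair (1.18, adjusted p = 0.000508). *Dbp*, a direct target of that pair, was at the low end with −1.24 (adjusted p = 0.0137), and it was lower than *Clock* by −2.11 (adjusted p = 3.95e-05). Against *Clock* 0 were higher in limma (7 had an unadjusted p under 0.05, and 6 were called lower, beside 80.5% of all genes). The immediate early genes, known for short-lived mRNAs, were higher than *Clock* in 5 of 5 with a share (0.64–1.18).

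In the nucleus at 20 min, introns of 10 of 13 other clock genes had a higher share than their exons beside 85.4% of all genes, and those of 1, *Rora*, a lower one, beside 0.151% (−0.90, limma adjusted p = 0.0462).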
